A study of Mus musculus with 22 samples.

Results

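Lactic acid was given together with lipopolysaccharide (LPS) to mouse macrophages, and the RNA of these cells was set against that of cells given LPS alone. The comparison rests on 4 of the 22 samples of the series, the 2 LPS+LA and the 2 LPS libraries among its 10 RNA libraries, picked by their labels. It covers all 16059 genes of the count table, of which 12213 had enough counts to be tested.

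The cells were bone marrow-derived macrophages (BMDMs) of C57/BL6 mice. Marrow was grown for 7 days in medium with 10% serum and 30% L929 supernatant, which supplies macrophage growth factor, and the cells were replated with 20% L929 supernatant on the eve of the treatment. LPS+LA cells received 100 ng/ml LPS and, with it, 10 mM of L-(+)-lactic acid (LA) over 3 h, and LPS cells received the same LPS without LA. RNA of 3 more groups of 2 libraries enters where it bears on the comparison. LPS+HCl cells had LPS in medium made acid with HCl, for which the labels give pH 6.5 as an example. LA cells had LA without LPS, with no separate dose in the labels, and control cells had neither. Open chromatin was read by ATAC-seq, in which a transposase tags accessible DNA, in 3 LPS+LA and 3 LPS samples. The labels give neither the pH reached with LA nor whether the libraries came from separate mice or cultures, so a p-value here tells of the spread among these libraries alone, and that spread may be technical.

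As background, LPS of Gram-negative bacteria is sensed by Toll-like receptor 4, which signals through MyD88 to NF-kB and through TRIF to interferon regulatory factors. NF-kB drives early cytokine genes, and interferon-beta made by the cells acts back on them to switch on interferon-stimulated genes. Lactic acid is the end product of glycolysis, enters and leaves cells with a proton through monocarboxylate transporters, and builds up in inflamed tissue and tumours.

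Total counts ran from 18668648 to 20219888 per library over all 10 RNA libraries. Levels are given in CPM, the usual unit of a gene's count relative to its library's total, here scaled by the TMM method, which sets the bulk of genes to no change. Over the 4 libraries the 23 listed macrophage genes summed to 44210 to 44255 CPM in LPS+LA and 43762 to 43870 CPM in LPS. Csf1r, the receptor that macrophages need to live, was at 1519.6 and 1494 CPM in LPS+LA and 1548 and 1624 CPM in LPS, so macrophage markers were abundant in both. Within that list Fcgr1 (-1.54 ± 0.13) and Adgre1 (-0.72 ± 0.07) fell and Lyz2 rose (0.19 ± 0.06), each as a log2 fold change of LPS+LA minus LPS ± its standard error. Spi1 (-0.98), Mpeg1 (-0.50) and Itgam (-0.39) fell too. In the test given below 7 of the 23 were called higher and 8 lower, where 29.2% and 29.7% of all tested genes were. The sum was led by Ctsb and Lyz2, at means of 10959 and 7771 CPM over the 4 libraries, and does not show such shifts. Summed markers of T, B, natural killer, neutrophil, dendritic and stromal cells stayed at or under 31.5 CPM in LPS+LA and 26.6 CPM in LPS. The mast cell list summed to 6.53 to 8.85 CPM in LPS+LA and 144 to 148 CPM in LPS through Hdc alone. The endothelial list summed to 89.2 to 97.7 CPM in LPS+LA and 178 to 185 CPM in LPS through Vwf and Kdr, and the erythroid and platelet list to 237 to 240 CPM in LPS+LA and 214 to 237 CPM in LPS through Pf4. Neuron and glia genes summed to 41.9 to 46.4 CPM in LPS+LA and 30.9 to 34.5 CPM in LPS, mostly Mbp, but to 88.1 CPM in LPS+HCl replicate 2 against 44.8 CPM in replicate 1, and to 80.6 and 59.1 CPM in control replicates 1 and 2. Their part in the results was not tested. Counts of calls for LPS+LA against LPS+HCl, and for LA's effect with LPS minus that without LPS, are also given without LPS+HCl replicate 2 and control replicate 1. LA against control was fitted only with all libraries. In such bulk RNA, fewer cells of a type and less RNA per cell cannot be told apart.

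Most tested genes differed between LPS+LA and LPS. In the quasi-likelihood test of edgeR, fitted on all 10 RNA libraries and adjusted by Benjamini-Hochberg over all tested genes, 7191 of 12213 genes (58.9%) passed an adjusted p of 0.05. Higher in LPS+LA were 3569 genes (29.2%), of which 1367 (11.2% of those tested) rose by at least 1 on the log2 scale. Lower were 3622 genes (29.7%), of which 1325 (10.8%) fell by at least 1. The balance of rises and falls depends on the scaling: with total counts alone, all genes shift up by 0.40 on the log2 scale, and 6208 genes are called higher and 2032 lower, 75.3% of calls higher where TMM gives 49.6%. The 2 LPS libraries had TMM factors of 0.763 and 0.759, and those of LPS+LA 1.00 and 1.01. Which scaling is closer to RNA per cell was not tested, and changes are relative to the bulk of genes throughout.

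**Figure D1:**
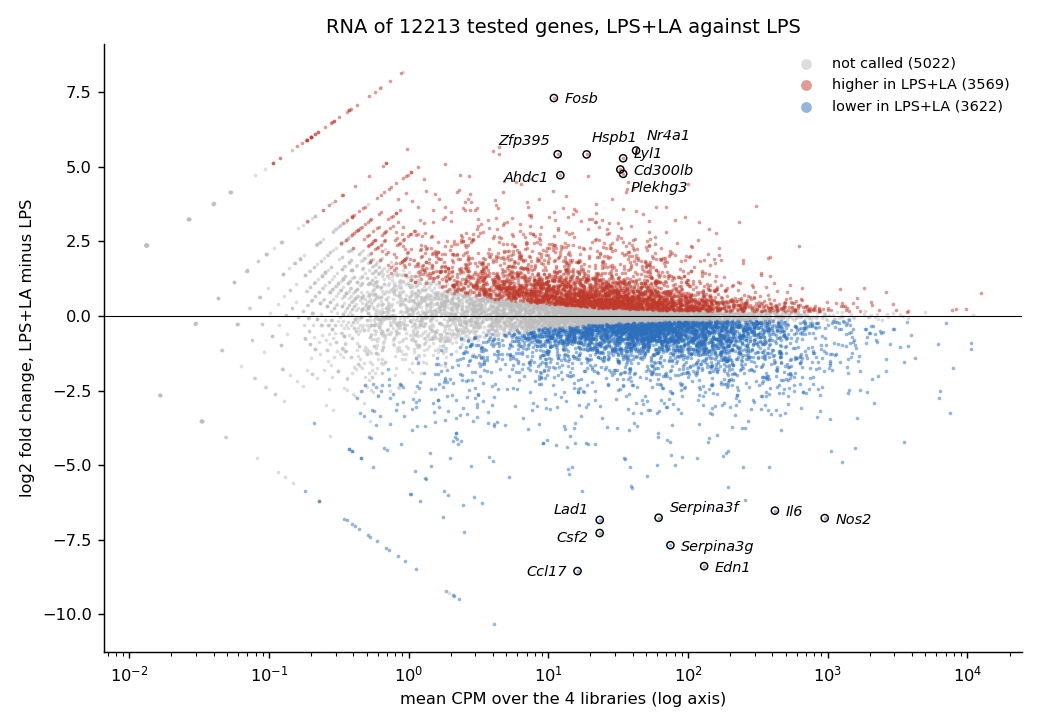
Each point is 1 of 12213 tested genes; the horizontal axis is the mean CPM over the 4 libraries (log axis) and the vertical axis the log2 fold change, LPS+LA minus LPS. Red points are the 3569 genes called higher, blue points the 3622 called lower and grey points not called; the circled genes are the 8 largest rises and 8 largest falls where a group averaged 10 CPM or more and the libraries of the groups did not overlap.

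The largest rises were regulators of transcription, a chaperone and a surface receptor, among others. Fosb, a subunit of the AP-1 transcription factor, had 22.1 and 21.4 CPM in the LPS+LA libraries, against 0 and 0.264 CPM in the LPS libraries, a log2 fold change of 7.31 ± 0.35. Nr4a1, an immediate early nuclear receptor, had 78.2 and 87.8 CPM in LPS+LA and 1.94 and 1.59 CPM in LPS, a fold of 46.8. Both genes were close to silent with LPS alone, and their LPS+LA libraries lay far above. Hspb1, which encodes the small heat shock protein HSP27, had 35.6 and 37.7 CPM against 0.907 and 0.793 CPM (5.42 ± 0.77). Lyl1, a basic helix-loop-helix factor of blood cells, had 65.2 and 68.4 CPM against 1.88 and 1.52 CPM (5.29 ± 0.16), and the receptor gene Cd300lb had 62.9 and 63.8 CPM against 1.81 and 2.38 CPM (4.91 ± 0.14). Zfp395 (5.43 ± 0.23), Plekhg3 (4.77 ± 0.14) and Ahdc1 (4.72 ± 0.22) completed the 8 largest rises. The rule that chose these 8 and the 8 largest falls also asked that the libraries of the groups did not overlap. Over the table as a whole 40.4% of tested genes had libraries apart in that direction and 38.8% in the other, so separation of 2 libraries from 2 is common here and is read only beside the test.

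The largest falls were inducible genes of activated macrophages. Edn1, the precursor of the vasoconstrictor endothelin-1, had 0.535 and 1.00 CPM in LPS+LA and 270.2 and 249 CPM in LPS (-8.39 ± 0.17), a level 335-fold lower. Ccl17, a chemokine gene, was counted 3 times over both LPS+LA libraries and 986 times over both LPS libraries, a ratio of 405 for LPS over LPS+LA with an exact counting interval of 138 to 1968 (95%). Csf2, which encodes the growth factor GM-CSF, had 0.321 and 0.263 CPM against 49.1 and 43.3 CPM (-7.28 ± 0.28). Each of these genes was well expressed with LPS and near background with LPS+LA. Nos2, the inducible nitric oxide synthase, had 13.003 and 21.3 CPM against 1832 and 1936 CPM (-6.78 ± 0.17), 109.6-fold lower. Il6, the cytokine interleukin-6, had 9.63 and 8.32 CPM against 854 and 800.4 CPM (-6.53 ± 0.11), 92.1-fold lower. Lad1 (-6.84 ± 0.32) and the protease inhibitor genes Serpina3g (-7.68 ± 0.23) and Serpina3f (-6.76 ± 0.26) complete the 8. The Serpina3 genes have near-identical copies, so the split of their counts is uncertain. By edgeR's quasi-likelihood test the largest adjusted p among the 16 genes was 0.00126.

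Of 23 tested inflammatory cytokine genes, 18 fell with LA and 3 rose, or 17 and 4 with total counts. Here and for every list below, the TMM counts stand beside 29.2% higher and 29.7% lower of all tested genes. Their median log2 fold change was -2.92, where the median of all tested genes was 0.03. Il12b, the shared subunit of interleukin-12 and interleukin-23, had 24.5 and 19.5 CPM in LPS+LA and 765 and 705 CPM in LPS (-5.06 ± 0.14). Tnf, the first cytokine of the response, had 1865 and 1391 CPM against 11338 and 10598 CPM (-2.75 ± 0.21), a fall of 6.74-fold that left it abundant. Il1b, which encodes interleukin-1 beta, had 478 and 525 CPM against 3835 and 3748 CPM (-2.92 ± 0.11). In each of these 3 genes both LPS+LA libraries lay below both LPS libraries. Tnfsf15, a TNF family ligand, fell by 24.4-fold with 15.4 and 14.3 CPM against 370.2 and 353 CPM. Il15, needed by natural killer cells, had 45.8 and 53.4 CPM against 401 and 384 CPM (-2.99 ± 0.08), and Csf1, the macrophage growth factor gene, had 237 and 222 CPM against 1264 and 1224 CPM (-2.44 ± 0.07). Il12a was counted 0 times in LPS+LA and 128 times in LPS, at least 52.6-fold lower at a floor of 3 counts over the group, and the list's median is -2.92 also with Il12a at that bound.

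3 cytokine genes rose, and the anti-inflammatory Il10 did not pass. Ifnb1, interferon-beta itself, had 66.7 and 59.4 CPM in LPS+LA and 22.2 and 25.4 CPM in LPS (1.40 ± 0.36, adjusted p = 0.022 by edgeR's quasi-likelihood test). Both LPS+LA libraries were above both LPS libraries, but the call is lost in 9 of the alternative fits, with adjusted p from 0.052 to 0.28, among them those without each LPS+LA, LPS or LPS+HCl library, whereas the 4 libraries alone give 8.6e-11. Tnfsf9, the ligand of the costimulatory receptor 4-1BB, had 994 and 1102 CPM against 202 and 208 CPM (2.35 ± 0.08). Lif, leukaemia inhibitory factor, had 25.04 and 22.01 CPM against 1.43 and 2.38 CPM (3.63 ± 0.28). These genes went against their list and, like other such members given further on, were singled out after their values were seen. Il10 had 13.97 and 19.0 CPM in LPS+LA and 17.0 and 17.5 CPM in LPS, ranges that overlap (-0.07 ± 0.21, adjusted p = 0.82 by edgeR), and its sign turns with total-count scaling or without LPS+LA replicate 1.

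Chemokines fell with few exceptions: 16 of 18 tested were lower, none was called higher with TMM scaling and 1 with total counts, and the median was -2.38. Cxcl9, a chemokine for activated T cells, had 5.78 and 8.27 CPM in LPS+LA and 475 and 532 CPM in LPS (-6.16 ± 0.13). Cxcl1, which attracts neutrophils, had 45.2 and 40.2 CPM against 519.5 and 461 CPM (-3.52 ± 0.12), and membrane-anchored Cx3cl1 had 69.9 and 52.8 CPM against 402 and 372 CPM (-2.66 ± 0.11). Falls were shallower for the monocyte chemokine Ccl2, with 1330.2 and 1281 CPM against 2443 and 2406 CPM (-0.89 ± 0.07), and for Cxcl10, with 6808 and 6556 CPM against 14360.1 and 14514 CPM (-1.11 ± 0.22). Ccl9, which resting macrophages already make, fell by 3.62-fold (-1.85 ± 0.07). The groups did not overlap for any of these 6. Ccl6 (0.10 ± 0.10) and the scarce Ccl24 (-0.13 ± 1.06) did not pass.

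Growth, vascular and tissue factors split, with 6 of 21 higher and 10 lower, and a median of -0.19, where 29.2% of all tested genes were higher and 29.7% lower. Vegfa, the main growth factor for blood vessels, had 53.4 and 62.8 CPM in LPS+LA and 8.10 and 7.07 CPM in LPS, a rise of 7.65-fold (2.94 ± 0.12). Plau, the urokinase plasminogen activator, had 264 and 236 CPM against 32.1 and 34.2 CPM, a rise of 7.53-fold. Mmp14, a membrane-bound matrix protease, had 57.3 and 64.4 CPM against 297 and 273 CPM (-2.23 ± 0.09). Vegfa and Plau thus moved opposite to Edn1 and Mmp14 within 1 list, and total-count scaling gives 10 higher and 8 lower.

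Effector enzymes and antimicrobial proteins fell: 17 of 20 tested were lower, none higher with TMM scaling and 2 with total counts, and the median was -1.74. Ptgs2, the inducible cyclooxygenase of prostaglandin synthesis, had 285 and 274 CPM in LPS+LA and 2978 and 2947 CPM in LPS (-3.41 ± 0.09). Acod1, which makes itaconate, had 3672 and 3543 CPM against 12104 and 12274 CPM (-1.76 ± 0.29). Saa3, an acute phase protein gene, had 3.91 and 2.63 CPM against 291 and 271 CPM (-6.43 ± 0.14), and complement factor gene Cfb had 1.77 and 2.69 CPM against 73.9 and 75.3 CPM (-5.06 ± 0.18). Sod2, the mitochondrial superoxide dismutase, fell by 3.28-fold with 244 and 242 CPM against 799.5 and 797 CPM. The size of the fall differed widely from Nos2 to Sod2, and Ptgs1, the constitutive cyclooxygenase, was not called (0.18 ± 0.13).

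**Figure D2:**
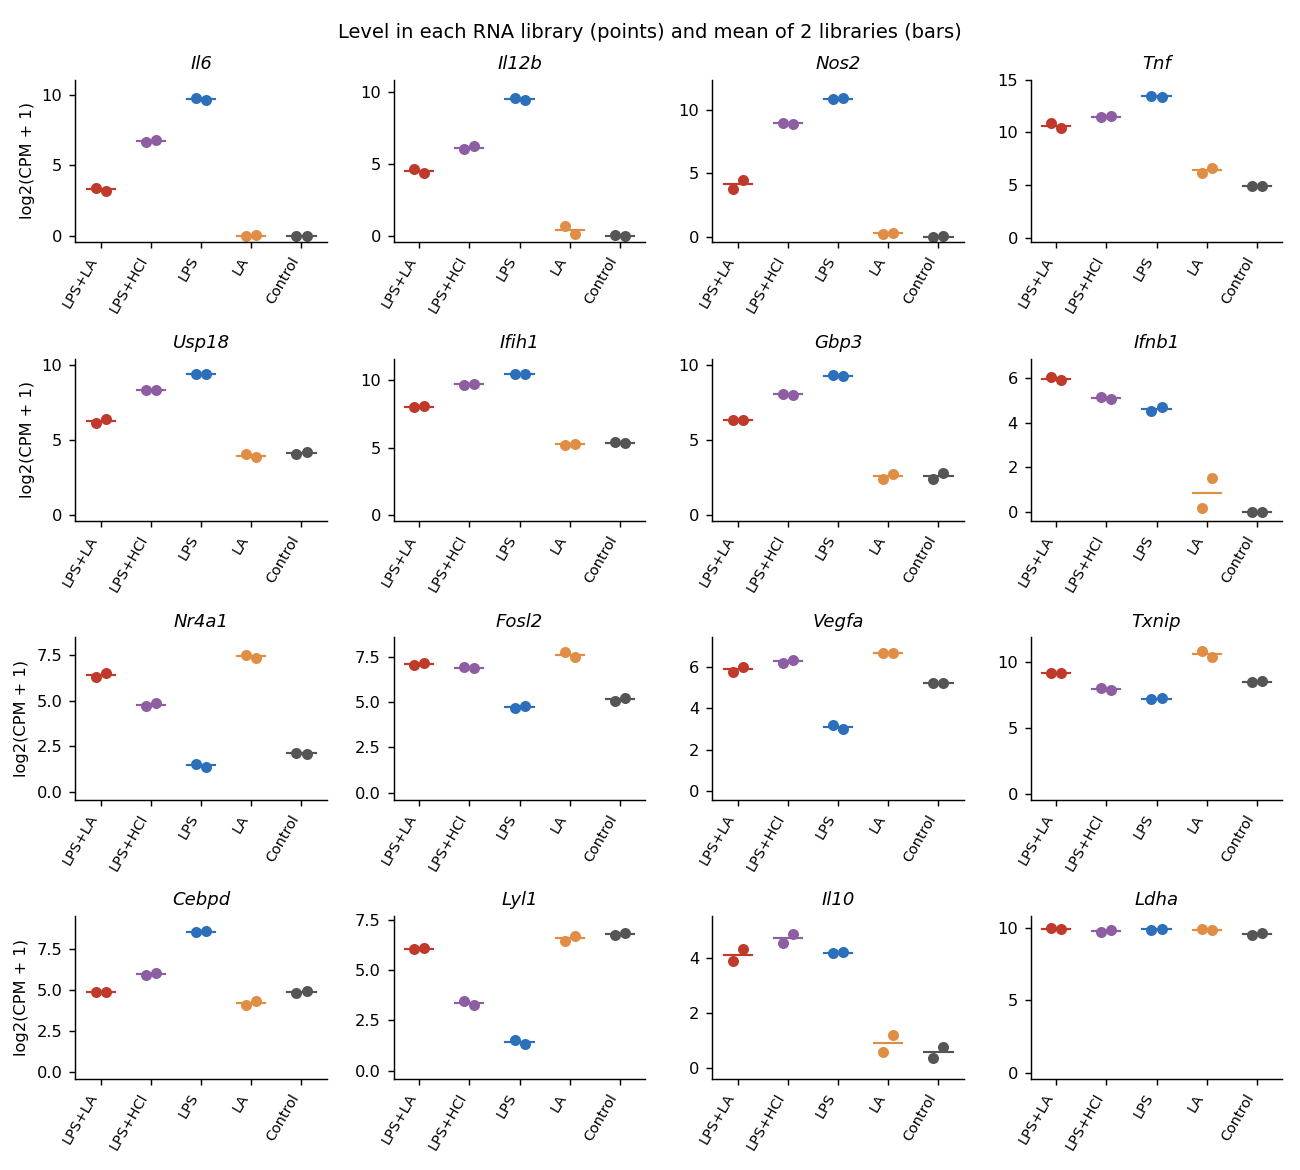
Each panel is 1 gene; the horizontal axis gives the 5 RNA groups and the vertical axis log2(CPM + 1), with a point per library and a bar at the mean of 2 libraries. LPS+LA lies under LPS for Il6, Il12b, Nos2, Tnf, Usp18, Ifih1, Gbp3 and Cebpd, above it for Ifnb1, Nr4a1, Fosl2, Vegfa, Txnip and Lyl1, and overlaps with it for Il10 and Ldha.

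All 35 tested genes of the type I interferon response fell with LA, under either scaling, by a median of -2.00. Usp18, a brake on the interferon receptor, had 70.2 and 83.1 CPM in LPS+LA and 675 and 671 CPM in LPS (-3.14 ± 0.09). Ifih1, the RNA sensor MDA5, had 256 and 269 CPM against 1423 and 1428 CPM (-2.44 ± 0.07). Ifi205, a member of the interferon-inducible p200 family, had 108 and 127 CPM against 934 and 900.1 CPM (-2.96 ± 0.09), and Eif2ak2, the RNA-activated kinase PKR, had 51.0 and 62.6 CPM against 399 and 412 CPM (-2.84 ± 0.09). In each, both LPS+LA libraries lay far below both LPS libraries. The smallest fall of the list was that of Bst2, which encodes the antiviral protein tetherin, at 168 and 196 CPM against 275 and 289.5 CPM (-0.63 ± 0.08). The fall of these genes stood beside a higher level of Ifnb1 in the same LPS+LA libraries.

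Guanylate-binding proteins and immunity-related GTPases, which attack the membranes that enclose microbes, fell further: 14 of 15 tested were lower, none was higher, and the median of -3.10 was the lowest of the 30 lists. Gbp9 had 18.1 and 19.7 CPM in LPS+LA and 300.1 and 304 CPM in LPS (-3.99 ± 0.09), and Gbp6 had 6.64 and 9.80 CPM against 222 and 227 CPM (-4.77 ± 0.13). Gbp3 fell by 7.99-fold and Irgm1, a regulator of the family, by 5.82-fold with 182 and 209 CPM against 1138 and 1136 CPM. Guanylate-binding protein genes lie in clusters of similar copies, so counts of single members are uncertain, and Gbp8, at 1.07 and 1.26 CPM in LPS+LA and 2.59 and 2.38 CPM in LPS, did not pass (-1.09 ± 0.49).

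The start regions of genes with opposite changes are shown to set their letters beside the values: from RefSeq, 250 bases before to 50 bases after the gene start, build GRCm38.p6, each read along its own gene. Capitals mark matches, on either strand, to TGACG (part of the cAMP response element), an NF-kB form (GGG, any 5 bases, CC) or an interferon response form (GAAA, any 2 bases, GAAA), and overlapping matches run together. TGACG lies within the full cAMP response element, TGACGTCA. Nr4a1 is at chr15:101266596-101266895 on the plus strand, Fosl2 at chr5:32136222-32136521 on the plus strand, Ifih1 at chr2:62646206-62646505 on the minus strand and Ifi205 at chr1:174031706-174032005 on the minus strand. The 3 members of the cAMP list with the smallest adjusted p were Nr4a1, Fosl2 and Adora2a, the 3 interferon response genes Usp18, Ifih1 and Ifi205, and the 4 of them in the promoter table are printed.
Nr4a1: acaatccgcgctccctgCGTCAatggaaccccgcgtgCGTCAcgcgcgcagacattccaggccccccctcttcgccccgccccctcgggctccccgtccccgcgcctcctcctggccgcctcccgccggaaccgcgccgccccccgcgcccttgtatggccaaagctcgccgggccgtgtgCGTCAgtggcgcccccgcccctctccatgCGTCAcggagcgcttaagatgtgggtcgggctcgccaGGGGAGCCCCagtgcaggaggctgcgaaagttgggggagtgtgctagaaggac
Fosl2: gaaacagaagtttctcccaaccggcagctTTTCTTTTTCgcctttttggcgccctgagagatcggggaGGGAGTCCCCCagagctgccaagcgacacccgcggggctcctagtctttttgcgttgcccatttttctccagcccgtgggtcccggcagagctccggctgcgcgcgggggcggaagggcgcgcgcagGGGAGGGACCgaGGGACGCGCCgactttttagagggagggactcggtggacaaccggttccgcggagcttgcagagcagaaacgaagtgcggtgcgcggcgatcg
Ifih1: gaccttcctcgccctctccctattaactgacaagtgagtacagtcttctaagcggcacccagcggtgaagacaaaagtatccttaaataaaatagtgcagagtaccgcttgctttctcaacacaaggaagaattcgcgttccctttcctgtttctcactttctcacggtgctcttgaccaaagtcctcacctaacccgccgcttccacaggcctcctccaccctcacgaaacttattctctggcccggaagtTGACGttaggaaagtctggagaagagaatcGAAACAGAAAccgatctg
Ifi205: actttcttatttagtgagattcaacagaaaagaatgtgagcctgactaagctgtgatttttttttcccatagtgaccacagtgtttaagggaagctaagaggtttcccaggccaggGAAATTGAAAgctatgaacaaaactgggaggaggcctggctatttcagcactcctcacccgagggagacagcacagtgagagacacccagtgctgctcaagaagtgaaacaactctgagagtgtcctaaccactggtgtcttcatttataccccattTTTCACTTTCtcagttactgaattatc
The Nr4a1 window holds 4 TGACG matches, beginning at bases -233, -213, -69 and -40 from the start, and the Fosl2 window holds none. Ifi205 holds 2 matches of the interferon form, Ifih1 and Fosl2 hold 1 each, and Nr4a1 holds none.

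Over the 9797 tested genes with such a window, the interferon form was found in 3.38%. It was found in 1.65% of the 1089 genes that rose by at least 1 on the log2 scale and in 10.1% of the 1057 that fell by at least 1. In the interferon list 14 of 27 windows held it, 51.9%. TGACG was present in 31.1% of genes that rose by at least 1, in 24.1% of those that fell by at least 1 and in 32.0% of all tested genes, and in 11 of 20 windows of the cAMP list, 55%. TGANTCA, an AP-1 form, stood in 5.14%, 7.95% and 4.99% of the same 3 sets. The NF-kB form, found in 67.5% of all tested genes, stood in 69.6% of those that rose and 65.1% of those that fell. TGACGTCA was in 3.58%, 2.46% and 3.31%, and CACGTG, the E-box, in 9.55%, 8.51% and 10.2%. Shares over all 27025 genes of the promoter table were 3.49% for the interferon form, 21.0% for TGACG, 7.93% for TGANTCA and 50.4% for the NF-kB form. These matches describe letters in a window, and no test was run on them.

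**Figure D3:**
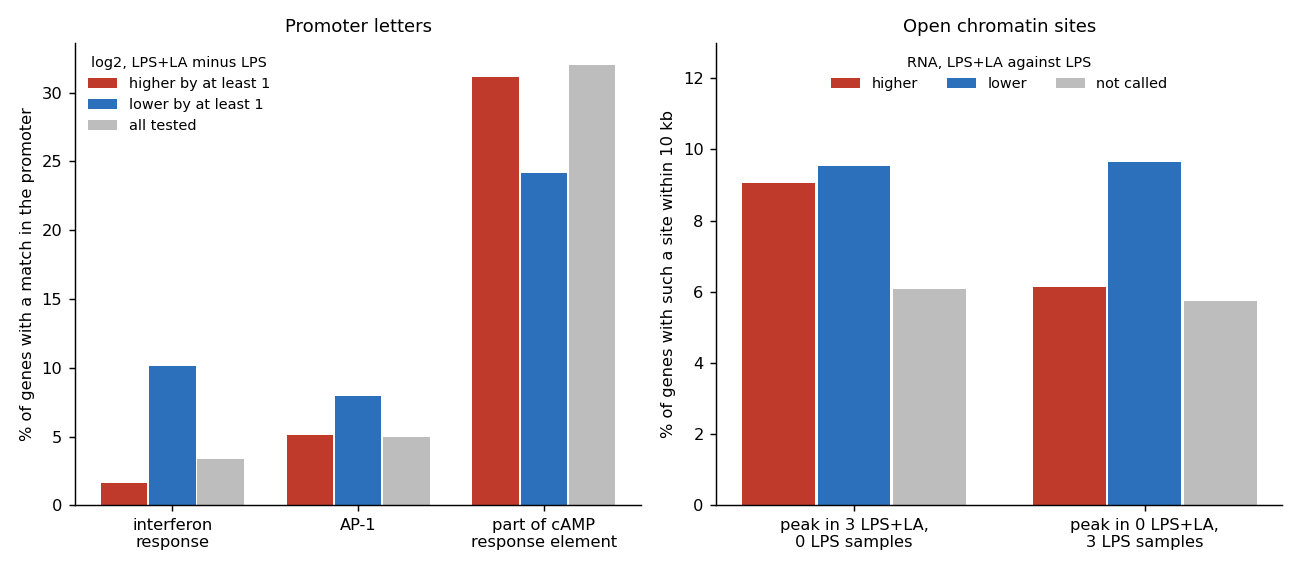
Left, percent of genes with the letters of 3 motifs in the promoter window (vertical axis), among genes that rose by at least 1 (red), fell by at least 1 (blue) and all tested genes (grey); the interferon form is in 1.65%, 10.1% and 3.38%. Right, percent of genes called higher (red), lower (blue) or not called (grey) with an open site within 10 kb that has a peak in 3 LPS+LA and 0 LPS samples or the reverse.

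Open chromatin around the called genes was read from peaks of the LPS+LA and LPS samples. Peaks were found in all 6 samples at 69263 sites, in all 3 LPS+LA samples and no LPS sample at 2889 sites (gained), and in no LPS+LA sample and all 3 LPS samples at 2952 sites (lost). A gained site lay within 10 kb of 9.04% of the genes that rose, 9.52% of those that fell and 6.07% of genes not called. A lost site lay within 10 kb of 6.12% of the genes that rose, 9.63% of those that fell and 5.75% of genes not called. Lost sites were thus most frequent beside genes that fell, while gained sites were about as frequent beside genes of both directions. The 10 kb were counted from the gene start for 9797 tested genes and from the gene's bounds for 2365 without a listed start. With listed starts only, the gained shares are 7.44%, 7.98% and 5.02% for genes that rose, fell or were not called. The lost shares are then 5.10%, 7.16% and 4.64%. Of 105 named genes with a listed start, 93 had a peak at the start in all 6 samples and 10 in none of them. Nr4a1, Ifih1 and Ifi205 had a start peak in 3 LPS+LA and 3 LPS samples, and Fosl2 in 0 LPS+LA and 2 LPS samples. All LPS+LA samples were sequenced on lane 6 and all LPS samples on lane 5, per the file headers, so lane and treatment cannot be told apart. Without LPS+LA replicate 1 the gained shares are 14.4%, 15.6% and 11.1% for genes that rose, fell or were not called, and without LPS replicate 3 the lost shares are 10.0%, 14.1% and 9.36%. Peak numbers per sample ran from 85571 to 99435 in LPS+LA and from 88807 to 100667 in LPS.

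Among Toll-like receptors and adaptors 13 of 23 fell and 4 rose (median -0.65). These are 56.5% and 17.4%, where 29.7% of all tested genes fell and 29.2% rose. Tlr3, the receptor of double-stranded RNA, had 30.3 and 32.0 CPM in LPS+LA and 257 and 274 CPM in LPS (-3.09 ± 0.10). Tlr7, a receptor of single-stranded RNA, had 57.0 and 56.4 CPM against 238 and 245 CPM (-2.09 ± 0.08), and Tlr1, a partner of Tlr2, had 61.6 and 72.0 CPM against 219.7 and 229 CPM (-1.75 ± 0.09). Myd88, the shared adaptor, had 146 and 142 CPM against 470.4 and 461 CPM (-1.69 ± 0.08). The LPS receptor Tlr4 changed little, with 40.1 and 41.7 CPM against 47.2 and 53.1 CPM (-0.29 ± 0.10, adjusted p = 0.013 by edgeR's quasi-likelihood test), and that call is lost without LPS+LA replicate 1 (adjusted p = 0.077) or LPS replicate 2 (adjusted p = 0.20) and its sign turns with total-count scaling. Tlr5 (2.09 ± 0.40), Tlr13 (0.77 ± 0.08), Irak4 (0.43 ± 0.12) and the LPS co-receptor Cd14 (0.40 ± 0.07) rose, while total-count scaling gives 8 higher and 11 lower.

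NF-kB subunits, inhibitors and feedback genes mostly fell, 21 of 28 lower against 5 higher, or 18 and 7 with total counts, with a median of -0.62. Nfkb1, the p105 and p50 subunit gene, had 333 and 349.6 CPM in LPS+LA and 1135 and 1169 CPM in LPS (-1.75 ± 0.07). Nfkb2 had 243 and 249 CPM against 947 and 909 CPM (-1.92 ± 0.07), and the adaptor Traf1 had 135 and 142 CPM against 740.0 and 700.5 CPM (-2.38 ± 0.07). The feedback inhibitor gene Tnip3 fell by 2.79-fold, and the atypical inhibitor Nfkbiz by 1.52-fold with 1122 and 1034 CPM against 1633 and 1654 CPM. Falls in this list were smaller than those of the cytokine genes by their medians, -0.62 against -2.92. The 5 that rose were the phosphatase genes Dusp1 (1.04 ± 0.08), Dusp4 (0.75 ± 0.12) and Dusp5 (2.11-fold higher), which switch off MAP kinases, together with Nfkbid (0.41 ± 0.12) and Tnip2 (0.37 ± 0.12).

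Inflammasome genes fell in 12 of 16 cases, with 2 higher and a median of -0.88. Nlrp3, the sensor, had 352 and 315 CPM in LPS+LA and 946 and 967 CPM in LPS (-1.52 ± 0.08). Casp4, named caspase-11 in mice, which binds LPS in the cytosol, had 36.0 and 41.6 CPM against 212 and 192 CPM (-2.38 ± 0.09), and Casp1, which cuts pro-interleukin-1 beta, had 91.1 and 85.8 CPM against 273 and 272 CPM (-1.62 ± 0.09). Casp8 fell by 2.19-fold. Nlrp1b (1.74 ± 0.14) and the pore-forming protein gene Gsdme (0.73 ± 0.23) rose, and total-count scaling gives 4 higher and 8 lower.

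Antigen presentation by MHC class I fell in 15 of 16 genes with none higher (median -0.99), though 3 are higher and 10 lower with total counts. Tap1, the peptide transporter, had 246 and 275 CPM in LPS+LA and 809 and 853 CPM in LPS (-1.67 ± 0.07). Psmb10, an immunoproteasome subunit, had 59.9 and 60.7 CPM against 227 and 219 CPM (-1.89 ± 0.09). Psme2, a proteasome activator, fell by 2.81-fold and the loading factor Tapbp by 2.40-fold. Of the class I heavy chain genes, H2-T23 (-1.06 ± 0.07) and H2-K1 (-0.25 ± 0.06) fell under TMM scaling.

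Of 19 MHC class II, costimulation and checkpoint genes, 12 fell and 3 rose (median -0.75). Cd40, a receptor for T cell help, had 56.3 and 66.9 CPM in LPS+LA and 876 and 861 CPM in LPS (-3.82 ± 0.09). Cd69, an activation marker, had 431 and 444 CPM against 2379.7 and 2450.2 CPM (-2.47 ± 0.06). Cd274, which encodes the checkpoint ligand PD-L1, had 177 and 215 CPM against 1118 and 1146 CPM (-2.53 ± 0.10), and Lgals9 fell by 2.57-fold. The class II genes H2-Ab1 (-0.12 ± 0.12) and Cd74 (-0.09 ± 0.08) were not called, and total-count scaling gives 9 higher and 10 lower.

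**Figure D4:**
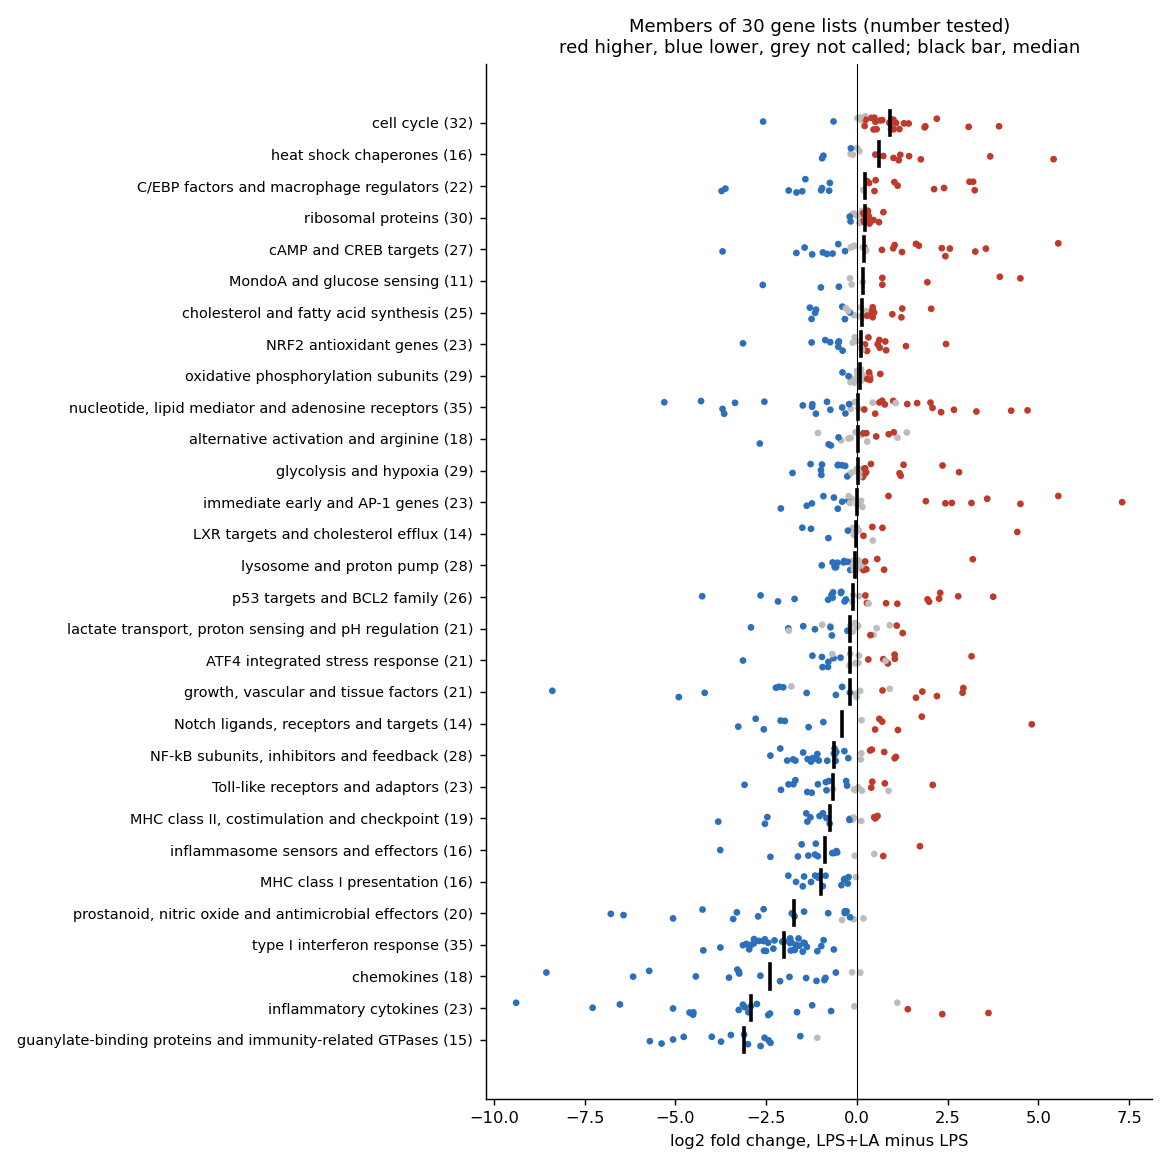
Each row is 1 of 30 gene lists with its number of tested genes, and each point a gene at its log2 fold change, LPS+LA minus LPS (horizontal axis), red where called higher, blue where called lower and grey where not called; black bars are medians. Medians run from 0.91 for cell cycle genes to -3.10 for guanylate-binding proteins and immunity-related GTPases.

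Cyclic AMP activates protein kinase A, which switches on the transcription factor CREB. The list read here holds genes driven by CREB and also parts of the pathway, such as Creb1 itself, Crtc2 and adenosine receptors. Its members went in both directions: 13 of 27 tested rose and 9 fell, or 16 and 6 with total counts, with a median of 0.20. With TMM 48.1% of the list rose, against 29.2% of all tested genes. The 33.3% that fell lie near the 29.7% of all tested genes. Nr4a1 led the rises as given above. Fosl2, an AP-1 subunit, had 136 and 146 CPM in LPS+LA and 25.1 and 26.8 CPM in LPS (2.44 ± 0.11). Per1, a clock gene, had 38.7 and 32.4 CPM against 3.43 and 3.96 CPM (3.26 ± 0.17), and the kinase gene Sik1 had 15.9 and 13.96 CPM against 2.66 and 2.38 CPM (2.56 ± 0.19). In these 4 genes both LPS+LA libraries lay at more than 5 times the mean of the LPS libraries. Adora2a, an adenosine receptor, went the other way with 6.15 and 6.11 CPM against 79.0 and 80.2 CPM (-3.70 ± 0.14), and so did Pde4b, a phosphodiesterase that degrades cAMP, with 139 and 141 CPM against 392 and 367 CPM (-1.44 ± 0.07). The related receptor Nr4a3 fell (-1.66 ± 0.10) and Nr4a2 was not called (-0.08 ± 0.19).

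Immediate early and AP-1 genes split in the same manner, 9 of 23 higher and 8 lower (median 0.00), or 13 higher and 4 lower with total counts. Of all tested genes 29.2% were higher and 29.7% lower under TMM. Fos had 235 and 195 CPM in LPS+LA and 22.7 and 25.4 CPM in LPS (3.16 ± 0.10), and Klf2, a factor of quiescent cells, had 62.7 and 63.7 CPM against 5.77 and 4.69 CPM (3.59 ± 0.14). Klf10 had 75.2 and 67.8 CPM against 2.79 and 3.50 CPM (4.51 ± 0.25). Klf6 fell, with 282 and 287 CPM against 1184 and 1243 CPM (-2.09 ± 0.07), and so did Atf3 (-1.38 ± 0.11). Myc was not called, with 26.6 and 33.2 CPM against 35.0 and 34.9 CPM (-0.22 ± 0.12). Within the AP-1 family the Fos members Fosb, Fos, Fosl2 and Fosl1 (1.90 ± 0.37) and Jun (0.87 ± 0.11) rose, whereas Junb (-0.23 ± 0.07) fell under TMM scaling.

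Of 22 C/EBP factors and macrophage regulators, 11 rose and 10 fell, under either scaling. That is 50% and 45.5% of the list, where 29.2% and 29.7% of all tested genes rose and fell with TMM. Cebpd, an early response factor that sustains cytokine transcription, had 28.9 and 28.8 CPM in LPS+LA and 378 and 385 CPM in LPS (-3.72 ± 0.09). Cebpa, linked to myeloid identity, had 49.6 and 47.3 CPM against 5.25 and 6.01 CPM (3.10 ± 0.13). Batf2 had 17.1 and 18.7 CPM against 219 and 221 CPM (-3.62 ± 0.10). The circadian repressors Bhlhe40, with 157 and 135 CPM against 15.4 and 16.3 CPM (3.20 ± 0.11), and Bhlhe41, with 37.7 and 37.0 CPM against 3.76 and 4.10 CPM (3.25 ± 0.13), both rose. Irf8 fell (-1.42 ± 0.07).

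Txnip, a brake on glucose uptake driven by the sensor MondoA, had 593 and 583 CPM in LPS+LA and 146 and 159.8 CPM in LPS (1.94 ± 0.10). Its relative Arrdc3 had 15.6 and 16.7 CPM against 0.648 and 1.45 CPM (3.94 ± 0.23). The glucose transporter genes Slc2a6, with 135 and 138 CPM against 806 and 833 CPM (-2.59 ± 0.08), and Slc2a1, with 135 and 127 CPM against 261 and 259 CPM (-0.99 ± 0.09), both fell. Over the 11 tested genes of this list 5 rose and 3 fell, or 7 and 2 with total counts. Falls, at 27.3% with TMM, lie near the 29.7% of all tested genes, and rises, at 45.5%, above the 29.2%.

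Glycolysis and hypoxia genes were mixed, 11 of 29 higher and 10 lower (median 0.04), or 18 higher and 5 lower with total counts. These TMM counts lie near the 29.2% higher and 29.7% lower of all tested genes. Pfkfb3, which makes the activator of phosphofructokinase, had 67.4 and 73.6 CPM in LPS+LA and 247 and 234 CPM in LPS (-1.77 ± 0.08). Mxi1, a Myc antagonist, had 116 and 128 CPM against 16.2 and 18.4 CPM (2.82 ± 0.10). Hif1a, the oxygen-regulated factor, had 228 and 229.9 CPM against 302 and 304 CPM (-0.40 ± 0.08), a call lost with total-count scaling. Ldha, which interconverts pyruvate and lactate, had 989.8 and 932 CPM against 921 and 954 CPM, overlapping groups with no call under TMM (0.03 ± 0.07). Ndrg1 fell by 2.42-fold and P4ha1 by 1.97-fold.

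For lactate transport, proton sensing and pH regulation, 3 of 21 tested genes rose and 7 fell (median -0.18), or 8 and 6 with total counts. With TMM the 33.3% lower lies near the 29.7% of all tested genes, and the 14.3% higher lies under their 29.2%. Gpr65, a receptor that senses protons and raises cAMP, had 45.9 and 43.3 CPM in LPS+LA and 20.0 and 17.1 CPM in LPS (1.26 ± 0.11). The lactate exporter Slc16a3 (MCT4) had 177 and 163 CPM against 203 and 203 CPM (-0.26 ± 0.09), a call that is lost without LPS+LA replicate 2 or either LPS library and whose sign turns with total-count scaling. The lactate carrier Slc16a1 (MCT1) rose (0.37 ± 0.15). The bicarbonate carriers Slc4a2, with 70.9 and 67.3 CPM against 187 and 198 CPM, and Slc4a7, with 113 and 137 CPM against 272 and 285 CPM, both fell, as did the carbonic anhydrase gene Car13 (-1.89 ± 0.09).

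Respiratory chain subunits changed little, 7 of 29 higher and 2 lower with a median of 0.10, and the largest shift was 0.65 ± 0.12 for Ndufa2. With total counts 27 are higher and none lower, and Atp5b, lower under TMM (-0.39 ± 0.07), has no call. Ribosomal protein genes were 20 of 30 higher and 2 lower (median 0.22), with Rplp1 at 675 and 625 CPM in LPS+LA and 432 and 418 CPM in LPS (0.61 ± 0.07), and 30 higher with total counts. Lysosome and proton pump genes gave 6 higher and 10 lower of 28, or 19 and 5 with total counts, led by the lysosomal regulator Tfeb with 32.5 and 29.3 CPM against 3.30 and 3.44 CPM (3.19 ± 0.16). In the first 2 of these lists higher calls outnumber lower ones under both scalings, while the balance of the lysosome list turns with the scaling. With TMM 29.2% of all tested genes were higher and 29.7% lower, so the 24.1% higher of the respiratory chain list lies under that share. Total counts shift all genes up by 0.40, so the larger counts with that scaling are not particular to these lists. Pump subunit genes Atp6v1e1 (-0.96 ± 0.07), Atp6v0a1 (-0.67 ± 0.06) and Atp6v1b2 (-0.61 ± 0.07) fell under TMM.

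Sterol genes split, with 11 of 25 higher and 7 lower (median 0.14), or 17 and 4 with total counts. With TMM the 28% lower lies near the 29.7% of all tested genes, and the 44% higher above the 29.2%. Insig1, which holds back the sterol sensor, fell by 2.45-fold. Dhcr7, the last enzyme of cholesterol synthesis, had 43.6 and 37.4 CPM in LPS+LA and 17.4 and 16.6 CPM in LPS (1.25 ± 0.11), and the desaturase Scd2 had 264 and 268 CPM against 63.6 and 65.0 CPM (2.05 ± 0.10). Of 14 LXR targets and efflux genes 4 rose and 4 fell, shares near the 29.2% and 29.7% of all tested genes, and with total counts 11 rose and 2 fell. Arl4c, a small GTPase gene, had 193 and 189.9 CPM against 8.62 and 9.25 CPM (4.42 ± 0.11), while the exporter Abcg1 (-1.26 ± 0.07) and Ch25h, which makes 25-hydroxycholesterol (-1.50 ± 0.10), fell, and Mylip rose (0.71 ± 0.09).

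Of 18 tested alternative activation genes 5 were higher and 4 lower, or 8 and 3 with total counts, where 29.2% of all tested genes were higher and 29.7% lower, so the counts say nothing particular of the list. Arg1, the arginase marker of that state, had 0.107 and 0 CPM in LPS+LA and 0.324 and 0 CPM in LPS, 2 and 5 counts over both libraries, too few to test. Slc7a2, an arginine carrier, had 33.5 and 35.4 CPM against 214 and 225 CPM (-2.67 ± 0.09). Odc1, the first enzyme of polyamine synthesis, had 244 and 238 CPM against 168 and 164 CPM (0.53 ± 0.07). The scavenger receptor Msr1 (-0.78 ± 0.07) and the transglutaminase Tgm2 (-0.71 ± 0.07) fell, and the mannose receptor Mrc1 was not called (-0.23 ± 0.11).

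Heat shock chaperones rose in 9 of 16 cases and fell in 3 (median 0.62), or 14 and 2 with total counts. With TMM that is 56.25% and 18.75%, against 29.2% and 29.7% of all tested genes. Bag3, a co-chaperone, had 198 and 189 CPM in LPS+LA and 70.5 and 72.3 CPM in LPS (1.44 ± 0.08). Hspa1a, the inducible HSP70, had 559.9 and 569 CPM against 45.2 and 43.1 CPM (3.67 ± 0.64), with the near-identical Hspa1b at 1.76 ± 0.52, so the share of each is uncertain. Hsf2, a heat shock factor, rose by 2.29-fold. The endoplasmic reticulum chaperone Hspa5 fell, with 791 and 750.3 CPM against 1453 and 1466 CPM (-0.92 ± 0.06), as did the HSP70 partner Dnaja1 (-0.96 ± 0.08), so both directions occur within the list.

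ATF4 targets were 6 of 21 higher and 8 lower, and NRF2 targets 10 of 23 higher and 8 lower. With total counts these splits are 9 and 7, and 14 and 4. Over all tested genes 29.2% were higher and 29.7% lower with TMM scaling, so the ATF4 counts lie near that background. Slc7a11, the cystine carrier that both lists hold, had 12.2 and 9.64 CPM in LPS+LA and 90.3 and 102 CPM in LPS (-3.14 ± 0.14). Hmox1, haem oxygenase 1, had 600.3 and 517 CPM against 216 and 222 CPM (1.35 ± 0.08). Osgin1 rose (2.46 ± 0.21), as did the mTORC1 inhibitor gene Ddit4 with 6.90 and 11.3 CPM against 0.972 and 1.06 CPM (3.16 ± 0.30). The folate enzyme Mthfd2 (-0.94 ± 0.08), the amino acid carrier Slc7a5 (-0.96 ± 0.09) and Keap1, the NRF2 inhibitor (-1.24 ± 0.09), fell.

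Of 26 p53 targets and BCL2 family genes 10 rose and 12 fell, or 13 and 8 with total counts. With TMM that is 38.5% and 46.2%, against 29.2% and 29.7% of all tested genes. Sesn1 had 40.3 and 41.1 CPM in LPS+LA and 2.85 and 3.17 CPM in LPS (3.76 ± 0.16). The survival genes Bcl2a1d, with 35.5 and 30.3 CPM against 210.5 and 203 CPM (-2.65 ± 0.10), and Bcl2a1b, at -1.71 ± 0.08, fell, and their near-identical copies make single counts uncertain. Plk2 fell by 4.50-fold. Bcl2 itself rose, with 48.6 and 45.8 CPM against 6.87 and 6.74 CPM (2.79 ± 0.14).

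Cell cycle genes had the highest median of the lists, 0.91, with 26 of 32 higher and 2 lower, or 30 higher and 2 lower with total counts. E2f2, a factor for S phase genes, had 53.7 and 53.4 CPM in LPS+LA and 2.79 and 4.29 CPM in LPS (3.92 ± 0.14). Cdt1, a licensing factor of replication, had 84.9 and 81.3 CPM against 18.5 and 17.6 CPM (2.20 ± 0.10), and the cyclin gene Ccnd1 had 410.1 and 361 CPM against 99.6 and 112 CPM (1.87 ± 0.08). Its paralog Ccnd2 moved the other way, with 118 and 138 CPM against 744 and 785 CPM (-2.58 ± 0.08). Proliferation markers differed among themselves. Mki67 rose by only 0.25 ± 0.08, and Top2a (0.10 ± 0.07) and Ccnb1 (0.13) were not called, while Aurkb (1.17), Plk1 (1.01) and Cdk1 (0.70) rose more.

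Receptors for nucleotides, lipid mediators and adenosine were 15 of 35 higher and 15 lower, or 18 and 12 with total counts. Each direction holds 42.9% with TMM, where 29.2% of all tested genes were higher and 29.7% lower. S1pr1, the receptor for sphingosine-1-phosphate, had 69.6 and 70.2 CPM in LPS+LA and 3.17 and 4.16 CPM in LPS (4.25 ± 0.13). Cxcr4, the receptor of the chemokine CXCL12, had 40.0 and 33.7 CPM against 1.17 and 1.65 CPM (4.70 ± 0.20), and the UDP receptor P2ry6 had 477 and 491 CPM against 181 and 189 CPM (1.39 ± 0.07). These 3 rose while the formyl peptide receptors Fpr1 (-5.30 ± 0.28) and Fpr2 (-4.29 ± 0.21) and the niacin receptor Hcar2 (-3.65 ± 0.18) fell. Notch genes gave 6 higher and 7 lower of 14, or 7 and 7 with total counts. Their TMM shares are 42.9% and 50%, beside the same 29.2% and 29.7% of all tested genes. Hes1, a target of the pathway, was at 2.30 and 1.74 CPM in LPS+LA and 0.0648 and 0.0661 CPM in LPS, 1 count in each LPS library, and the ligand gene Jag2 (1.79 ± 0.23) and Notch4 (1.13 ± 0.21) rose. The members with the smallest adjusted p were falls, of Notch2, at 176 and 204 CPM against 776 and 855 CPM (-2.10 ± 0.08), of the coactivator Maml2 (-3.27 ± 0.13), of Dtx3l (-1.98 ± 0.10) and of the ligand Dll1 (-2.56 ± 0.21).

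To see how far these genes differ from cells given LPS in medium acidified with HCl, LPS+LA was tested against LPS+HCl. The 2 treatments are not matched for pH by the labels, so the values describe these 2 conditions. Of 12213 genes, 4996 differed (40.9%), 2243 higher in LPS+LA (18.4%) and 2753 lower (22.5%), by edgeR's quasi-likelihood test. Without LPS+HCl replicate 2 the counts are 1477 higher and 2135 lower, and without that library and control replicate 1 they are 1381 and 2104. With total counts they are 3947 and 1893, and the median of all genes lies at 0.16. Many of the genes above lay lower in LPS+LA than in LPS+HCl. Il6 had 9.63 and 8.32 CPM in LPS+LA and 97.4 and 111 CPM in LPS+HCl (-3.54 ± 0.11), and Nos2 13.003 and 21.3 CPM against 505 and 484 CPM (-4.85 ± 0.16). Type I interferon response genes were lower in 35 of 35 cases (median -1.41), guanylate-binding proteins and immunity-related GTPases in 14 of 15 (median -2.06) and cytokines in 17 of 23 (median -1.40). Without LPS+HCl replicate 2 these counts are 34 of 35, 14 of 16 and 14 of 23, and without control replicate 1 as well 32, 13 and 14. Nr4a1 was higher, at 78.2 and 87.8 CPM against 25.2 and 27.7 CPM (1.65 ± 0.10), and so were Lyl1 (2.84 ± 0.11) and Txnip (1.21 ± 0.10).

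Some genes called against LPS alone were not called between LPS+LA and LPS+HCl under TMM, though the 3 given next are called higher in LPS+LA with total counts. Mxi1 had 116 and 128 CPM in LPS+LA and 117 and 118 CPM in LPS+HCl (0.05 ± 0.08), Fos had 235 and 195 CPM against 193 and 184 CPM (0.19 ± 0.08), and Bag3 had 198 and 189 CPM against 169 and 183 CPM (0.14 ± 0.08). Fosl2 differed by little, with 136 and 146 CPM against 122 and 117 CPM (0.24 ± 0.09), a call lost without LPS+HCl replicate 2 (adjusted p = 0.22 by edgeR). Vegfa was lower in LPS+LA, with 53.4 and 62.8 CPM against 72.5 and 79.7 CPM (-0.39 ± 0.09), with no call under total counts (adjusted p = 0.054 by edgeR). Lower too was Pfkfb3, with 67.4 and 73.6 CPM against 250.1 and 253 CPM (-1.84 ± 0.08), and Ch25h (-2.34 ± 0.10). Plk2 (0.67 ± 0.11), Nfkbiz (0.38 ± 0.07) and Atp6v0a1 (0.56 ± 0.07), all lower than in LPS, were higher than in LPS+HCl.

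LA without LPS shares no library with the comparison of LPS+LA against LPS, so its values may be set beside it. LA raised 2488 genes and lowered 2189 against control cells, 20.4% and 17.9% of those tested. This comparison was fitted only with TMM scaling on all libraries. It was not repeated with total counts or without control replicate 1. Of the 3569 genes higher in LPS+LA, 1279 (35.8%) were also higher with LA alone and 371 (10.4%) lower. Of the 3622 genes lower in LPS+LA, 1175 (32.4%) were also lower with LA alone and 514 (14.2%) higher. Across genes, which are not independent replicates, the log2 fold changes had a Pearson r of 0.19. Changes of at least 1 on the log2 scale that passed the test made up 22.04% of tested genes with LPS and 4.95% without it.

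Nr4a1 rose in both settings, by 5.55 ± 0.15 with LPS and 5.64 ± 0.13 without it, with 180.4 and 156 CPM in LA cells and 3.43 and 3.33 CPM in control cells, and the difference of -0.09 ± 0.26 did not pass. Txnip rose by 1.94 ± 0.10 and 2.10 ± 0.10, and Fosl2 by 2.44 ± 0.11 and 2.51 ± 0.10. Lyl1 was at 88.8 and 103 CPM in LA cells and 106 and 114 CPM in control cells (-0.20 ± 0.09), so its LPS+LA level, 65.2 and 68.4 CPM, lay nearer to that of cells without LPS than to LPS alone. The interaction, the effect of LA with LPS minus its effect without LPS, was called for 5409 genes (44.3%), higher for 2492 (20.4%) and lower for 2917 (23.9%), by edgeR's quasi-likelihood test. With total counts the split is 5917 higher and 1294 lower, with the median of all genes at 0.51, and without control replicate 1 and LPS+HCl replicate 2 it is 2096 and 2589. Il1b and Ptgs2 fell with LPS but rose without it: Il1b had 5.93 and 8.79 CPM in LA cells and 0.525 and 0.762 CPM in control cells, and Ptgs2 had 12.4 and 14.8 CPM against 0.970 and 0.962 CPM. Tnf behaved likewise at 69.4 and 100.5 CPM in LA cells and 29.3 and 29.4 CPM in control cells (1.53 ± 0.23). The interferon list, lower in 35 of 35 cases with LPS, had a median of -0.19 with LA alone, and its interaction was lower for 34 of 35 genes, or 31 with total counts and 31 without control replicate 1 and LPS+HCl replicate 2.

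**Figure D5:**
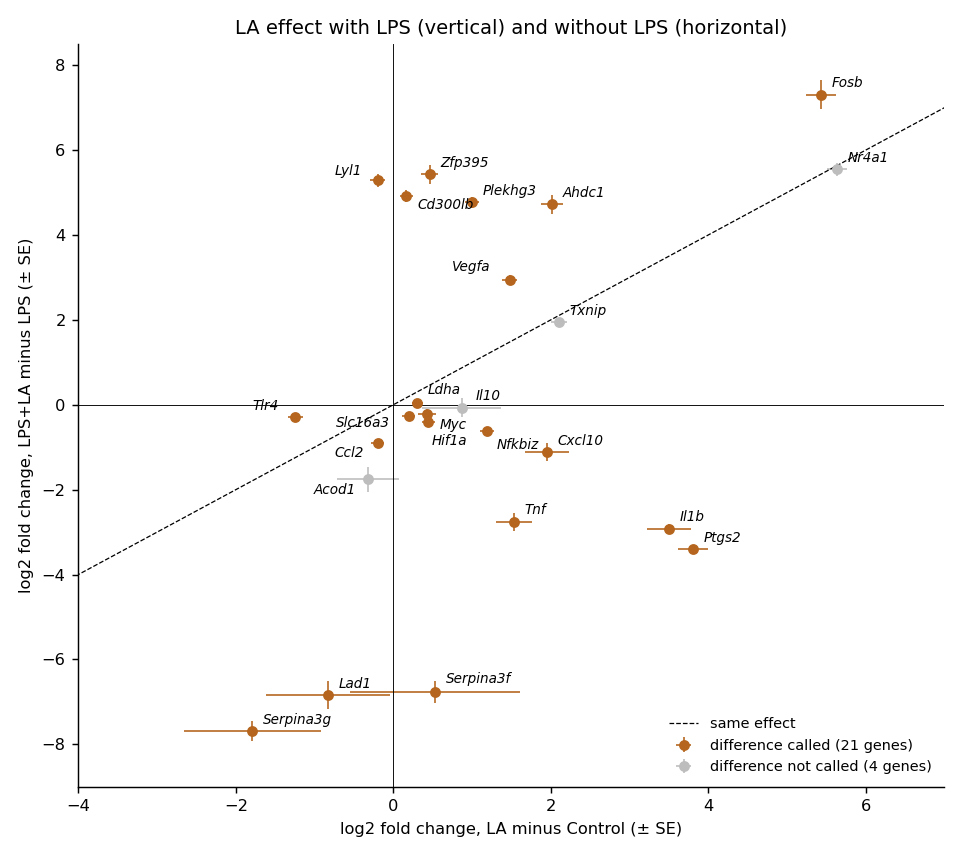
Each point is 1 of 25 named genes, with the log2 fold change of LPS+LA minus LPS on the vertical axis and of LA minus control on the horizontal axis, bars showing ± 1 standard error; points on the dashed line have the same effect. Brown points (21 genes) passed the test of the difference and grey points (Nr4a1, Txnip, Acod1 and Il10) did not. Some genes were chosen by their value on the vertical axis, which favours a pass. Tnf, Il1b, Ptgs2 and Cxcl10 lie at lower right.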

How the data were processed

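RNA reads were processed with HISAT, Bowtie2 and build GRCm38.p6 named in the submitters' processing notes. The authors deposited estimated counts per gene, with FPKM and TPM values made by them from the same reads. The counting tool and its use of strand are not given in the sources used here. Overlapping antisense genes therefore cannot be told apart. Peaks came from BWA 0.5.9, Picard and MACS2 2.0.10 on mm10, per the submitters' processing notes, one list per sample as deposited, with a peak score from the authors that was used only to rank peaks within a list. No label or header used here tells if read ends were moved to the transposase cut. FPKM and TPM were not tested.

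Of the expected counts 6.07% were not whole (tolerance 1e-06) and were rounded. The table held 16059 genes, 15959 of them matched by ID to RefSeq GRCm38.p6, and 23 symbols that a spreadsheet had turned into dates were restored by ID. Genes were kept by filterByExpr (minimum count 10, minimum total 15) and fitted by edgeR 4.0.16 quasi-likelihood on all 10 libraries with TMM scaling, in R 4.3.3. The count intervals and the floor of 3 counts cover counting error only. DESeq2 1.42.0 and other scalings, filters and left-out libraries were alternatives. On simulated counts for LPS+LA against LPS with 12213 genes, the fit recovered 48%, 72%, 88% and 92% of genes changed by log2 0.5, 1, 2 and 3, with 6.25% of its calls false. Only 50 genes at each size were changed there, and all others had the same mean in every group. In the data 58.9% of genes were called, so the simulation does not cover the choice of scaling, and its false share need not hold for the data.

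The members and the gene lists were chosen with earlier results of these data known. Named genes are, among called genes, the 8 largest rises and 8 largest falls with a mean of 10 CPM or more in a group and no overlap of libraries. Added to these were up to 4 called members of each list, ranked by adjusted p, and 23 genes set by name. Every other named member was picked after its values were seen. Some results are not reported here.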

Additional observations from a re-analysis of the deposited data

Results flagged for a closer look

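For 25 named genes the effect of LA with LPS was set against its effect without LPS by an interaction term in edgeR. For 21 of them the difference itself passed at an adjusted p of at most 0.0306, where 44.3% of all tested genes passed. Some of the 25 were chosen as the largest changes of LPS+LA against LPS. That change is part of the difference tested, so a pass was favoured for them and the count of 21 carries no weight of its own. Values are log2 differences, LPS+LA minus LPS, less LA minus control. Higher with LPS were Lyl1 by 5.49, Zfp395 by 4.96, Cd300lb by 4.75, Plekhg3 by 3.77, Ahdc1 by 2.70, Fosb by 1.88, Vegfa by 1.46 and Tlr4 by 0.95. Among the genes of the immune response the difference was -7.21 for Ptgs2, -6.42 for Il1b, -4.28 for Tnf, -3.06 for Cxcl10, -1.80 for Nfkbiz and -0.69 for Ccl2. It was -7.29 ± 1.41 for Serpina3f, -6.003 ± 1.19 for Lad1 and -5.89 ± 1.52 for Serpina3g. Without LPS these genes had only 4 to 16 counts over both libraries of a group, so the size of their differences is uncertain. For Hif1a it was -0.85, for Myc -0.65, for Slc16a3 -0.45 and for Ldha -0.27. With total-count scaling Ldha (0.24) and Slc16a3 (0.06) turn sign, and Slc16a3, Myc (-0.14) and Ccl2 (-0.18) no longer pass; Ldha does not pass without control replicate 1 and LPS+HCl replicate 2 either (adjusted p = 0.16 by edgeR). No cause of these differences was tested.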

How the results depend on the processing

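Total-count scaling moved the split of higher and lower calls most. It gave 6208 higher and 2032 lower genes for LPS+LA against LPS, 3947 higher for LPS+LA against LPS+HCl, and 5917 higher and 1294 lower for the interaction. Leaving out each library gave 6035 to 7381 calls (2925 to 3644 higher, 3110 to 3746 lower) for LPS+LA against LPS, 3612 to 5279 (1477 to 2377 higher, 2135 to 2908 lower) against LPS+HCl and 4509 to 5266 for the interaction. Without control replicate 1 and LPS+HCl replicate 2 together 1381 genes were higher than in LPS+HCl. Where a group is left with 1 library, that library is assumed to vary like the other groups. With the replicate block the calls numbered 7141, 4912 and 5380. Same-numbered samples share only a number by their labels. Their deviations from the group means correlated by -0.04 to 0.04 between groups, except for control and LPS+HCl at -0.43. Control replicate 1 thus deviated together with LPS+HCl replicate 2, and the cause was not tested.

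Signs turned with total counts for Atp5b (0.0071), Il10 (0.34), Tlr4 (0.11), Myc (0.18) and Slc16a3 (0.14). For Ldha they turned with DESeq2-type size factors (-0.00045), with the DESeq2 Wald test (-0.00045) and among left-out libraries, which span -0.0016 to 0.076. For Il10 left-out libraries span -0.31 to 0.15. Of 2448 alternative values for named genes 2422 kept direction and side of the threshold. Most of these genes were chosen as called or for a small adjusted p, so stable calls were favoured. Over all tested genes, total-count scaling kept 100% of the higher and 56.1% of the lower calls of LPS+LA against LPS. It turned 102 of the lower calls to higher ones. Of 1020 list counts 39 moved by over 1.5 times, 23 of them with total counts.

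Within 50 kb, gained sites lay near 26.2%, 24.6% and 20.2% and lost sites near 21.1%, 28.3% and 19.3% of genes that rose, fell or were not called. With the peaks of highest score, the gained shares were 7.81%, 6.48% and 4.15% and the lost shares 3.90%, 7.39% and 4.17%, with the largest gained share beside genes that rose. Without ATAC LPS+LA replicate 1 the gained shares were 14.4%, 15.6% and 11.1%, and without ATAC LPS replicate 3 lost sites lay near 10.0% of genes that rose and 9.36% of those not called. The causes were not tested.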
